A study of Homo sapiens with 4 samples.

Results

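The genes described here are the protein-coding genes of human chromosome 19 whose symbol is ZNF followed by a number. GENCODE 29 lists 240 of them, and 224 had at least 1 CPM (a library's counts scaled to a fixed total) in at least 1 of the study's 4 libraries, out of 13328 protein-coding genes measured in that way. The nearest member inside this limit, ZNF439, reached 1.11 CPM, and the nearest outside it, ZNF763, reached 0.827 CPM. The 240 genes were chosen by name and position only, and the limit of 1 CPM then used their levels in these libraries. No ratio between libraries was part of the rule, but a gene could pass through 1 library alone.

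C2H2 zinc finger proteins bind DNA through repeated fingers, each of which holds a zinc ion between a pair of cysteines and a pair of histidines. Many also carry a KRAB box, through which they recruit the corepressor TRIM28 and, with it, the histone methyltransferase SETDB1 and heterochromatin proteins. Chromosome 19 holds large clusters of such genes, made by repeated duplication in primates, and many of their products silence transposable elements.

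The cells were AC16, an established human cell line that descends from ventricular heart muscle fused to a transformed fibroblast line, and which the labels class as cardiomyocytes. Doxorubicin, an anthracycline used against cancer, inserts between DNA bases and poisons topoisomerase II. Treated cells had the serum medium removed, were rinsed, and received 10 nM doxorubicin in fresh serum-free medium for 10, 30 or 360 min, whereas the 0 min library is labelled untreated. Whether the untreated cells were also moved to serum-free medium is not stated, so the drug and the change of medium cannot be told apart.

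Each time had 1 library of poly(A) RNA, so every difference below compares libraries, without a replicate check and without a p-value. The libraries held 55156612 to 56875881 deposited counts, taken as 13789153 to 14218970 read pairs. Of 15 cardiomyocyte markers 7 were measured, and PLN and MYBPC3 were at 0 in every library. The summed level of the list was 115, 137, 213 and 149 CPM at 0, 10, 30 and 360 min. NPPB alone held 37.4, 55.1, 123 and 61.7 CPM of this sum, whereas TTN stood at 16.1, 19.9, 11.9 and 17.7 CPM. Of 11 fibroblast and matrix markers 6 were measured, LUM and DCN were at 0, and the list summed to 8331, 10026, 6979 and 6880 CPM. COL1A1 alone held 5653, 5942, 4842 and 4714 CPM of it. The part of these markers in the results below was not tested. In bulk RNA, fewer cells with a transcript and less transcript per cell cannot be told apart.

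As a family, the chromosome 19 zinc finger genes were expressed at low levels, and their total hardly moved. All 240 members together held 0.194%, 0.195%, 0.190% and 0.193% of the counts at 0, 10, 30 and 360 min, and their summed level was 1953, 1908, 1914 and 1938 CPM. The median level of a measured member was 6.003, 5.90, 5.63 and 5.85 CPM in the same order. Averaged over the libraries, the median member stood at 5.84 CPM, against 23.8 CPM for all measured protein-coding genes, 22.3 CPM for the other genes of chromosome 19 and 10.3 CPM for the ZNF genes of other chromosomes. Per kilobase of annotated transcript the medians were 1.83 CPM for members and 7.69 CPM for all genes. A mean of 10 CPM or more was reached by 62 members, 160 lay between 1 and 10 CPM and 2 lay below 1 CPM.

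On the scale of CPM per kilobase, which allows genes to be compared with each other, the 6 highest members were ZNF358 at 25.3, ZNF428 at 23.2, ZNF146 at 21.5, ZNF787 at 21.2, ZNF580 at 18.2 and ZNF274 at 11.4. ZNF146, a protein made almost only of fingers, stood at 85.2, 73.6, 69.8 and 82.1 CPM at 0, 10, 30 and 360 min. ZNF358 stood at 46.6, 60.2, 46.7 and 44.1 CPM, but 34.4% of its exon bases overlap AC008878.1 on the same strand. These levels stayed within 1.36-fold of each other for ZNF358 and within 1.22-fold for ZNF146. ZNF274, which is known to recruit SETDB1 to the ends of zinc finger genes, was among the steadiest members at 36.3, 37.6, 42.0 and 36.1 CPM. The other 3 steadiest members with at least 10 CPM in every library were ZNF266, ZNF28 and ZNF175, whose highest and lowest levels differed by 1.08-fold, 1.15-fold and 1.12-fold.

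The 5 promoters printed here come from members that behaved differently below: ZNF175 was steady, ZNF787 was among the highest per kilobase, ZNF264 was lower at 360 min, and ZNF528 and ZNF813 were higher at all 3 times. Each is the 250 bases before the annotated start, 5' to 3' on the gene's strand, from RefSeq on GRCh38.p14. Capitals mark the letters CCGGAAGT, known from sites of ETS factors, and GGGCGG, the GC box of SP and KLF factors, on either strand.
ZNF175: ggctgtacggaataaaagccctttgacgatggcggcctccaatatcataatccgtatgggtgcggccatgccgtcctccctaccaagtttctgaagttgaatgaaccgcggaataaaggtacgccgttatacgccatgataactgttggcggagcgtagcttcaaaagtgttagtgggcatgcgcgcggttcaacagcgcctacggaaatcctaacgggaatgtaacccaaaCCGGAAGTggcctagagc
ZNF264: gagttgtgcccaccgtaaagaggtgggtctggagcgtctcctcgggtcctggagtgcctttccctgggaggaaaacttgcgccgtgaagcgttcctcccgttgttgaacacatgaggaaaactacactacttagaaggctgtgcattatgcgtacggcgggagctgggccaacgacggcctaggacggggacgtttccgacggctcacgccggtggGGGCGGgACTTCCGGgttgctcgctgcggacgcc
ZNF787: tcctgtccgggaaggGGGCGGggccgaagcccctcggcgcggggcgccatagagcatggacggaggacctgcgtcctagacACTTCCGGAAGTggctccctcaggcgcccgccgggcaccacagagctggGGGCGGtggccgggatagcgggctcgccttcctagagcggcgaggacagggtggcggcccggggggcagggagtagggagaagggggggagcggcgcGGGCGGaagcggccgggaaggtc
ZNF528: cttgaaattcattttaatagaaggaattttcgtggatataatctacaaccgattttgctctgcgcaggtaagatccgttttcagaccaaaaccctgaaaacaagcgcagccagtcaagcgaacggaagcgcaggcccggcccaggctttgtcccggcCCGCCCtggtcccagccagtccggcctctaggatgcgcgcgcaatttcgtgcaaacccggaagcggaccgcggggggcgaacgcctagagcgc
ZNF813: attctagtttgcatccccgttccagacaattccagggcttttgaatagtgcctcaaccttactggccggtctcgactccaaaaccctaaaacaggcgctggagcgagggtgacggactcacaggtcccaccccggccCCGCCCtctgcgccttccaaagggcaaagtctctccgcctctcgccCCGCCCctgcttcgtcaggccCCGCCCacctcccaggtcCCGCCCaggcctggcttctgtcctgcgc
The windows lie at chr19:51571033-51571282 (ZNF175, plus strand), chr19:57191250-57191499 (ZNF264, plus), chr19:56121296-56121545 (ZNF787, minus), chr19:52397599-52397848 (ZNF528, plus) and chr19:53467483-53467732 (ZNF813, plus).

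In the ZNF175 window the ETS letters begin 18 bases before the start, and in the ZNF264 window 27 bases before it. ZNF787 holds a pair of matches on opposite strands that overlap each other, and the ZNF528 and ZNF813 windows hold none. RefSeq windows were matched for 209 members, with 256 windows in all because some genes have several starts. CCGGAAGT stood in 16.0% of the members' windows, in 13.5% of 237 windows of ZNF genes on other chromosomes, and in 5.43% of 20992 windows of protein-coding genes. GGGCGG stood in 67.2% of the members' windows, 60.8% of those of other ZNF genes and 56.99% of all windows. TATAAA, the letters of a TATA box, stood in 2.73%, 5.06% and 9.25%. The median window of members held 60.7% G and C bases against 62.7% for all windows. AANATGGCG (YY1) stood in 4.69% of the members' windows against 4.37% of all windows, and TGACGTCA (CRE) in 3.13% against 2.24%. The NRF1 motif stood in 3.13% against 1.49%, and GCGTGGGCG (EGR1) in 1.17% against 1.06%. In the windows of ZNF genes on other chromosomes the shares were 5.91% (YY1), 3.80% (CRE), 2.95% (NRF1) and 1.27% (EGR1). A match describes letters in this window and is not a shown site. Whether such letters go with the direction of a call was not tested, and the 5 printed windows cannot show it.

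A member was called higher or lower where the ratio of its CPM was 2-fold or more, 1 or both libraries reached 1 CPM, and the 95% exact (Clopper-Pearson) counting interval of the ratio excluded 1. Intervals cover counting error only. The 3 comparisons with 0 min share the 0 min library, so a value peculiar to that library would enter all of them.

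After 10 min, the calls of the family went both ways in similar numbers. Of 223 members compared, 24 were higher, against 9.88% of all measured protein-coding genes, and 26 were lower, against 7.52%. These counts are 10.8% and 11.7% of the members. The members' median log2 ratio was 0.03, with -0.04 for all genes, -0.10 for the ZNF genes of other chromosomes and 0.04 for the other genes of chromosome 19. Between settings the members' median lay on either side of 0, from -0.05 to 0.07. Of 208 ZNF genes of other chromosomes, 20 were higher and 18 lower. Among the 799 other genes of chromosome 19, 117 were higher and 54 lower.

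**Figure D1:**
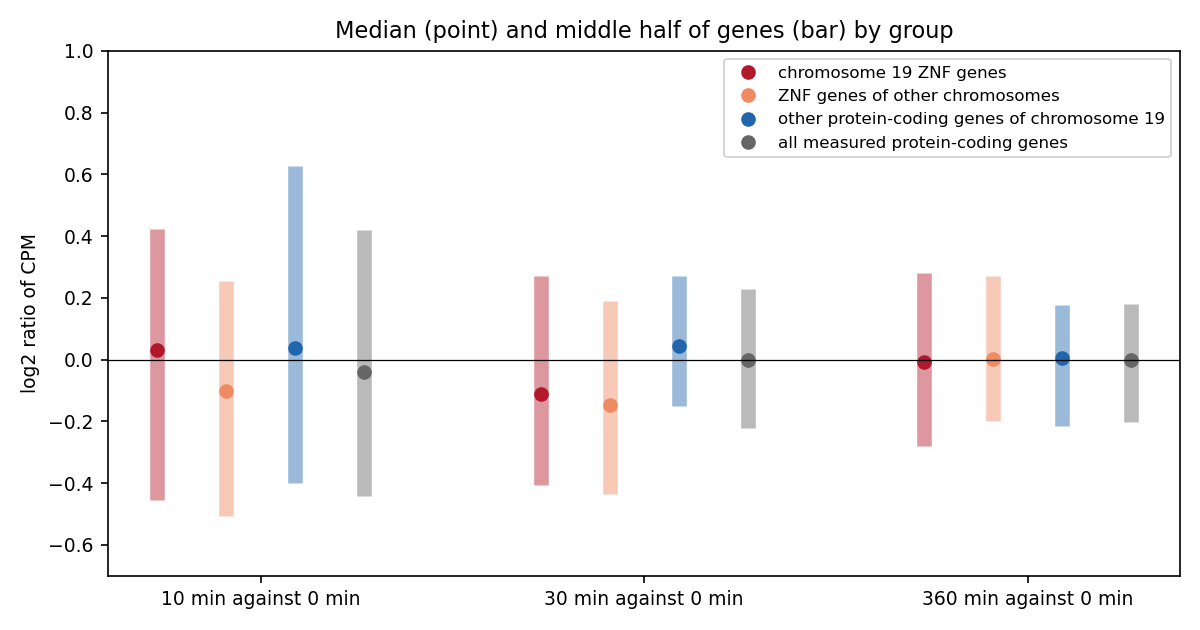
Median (point) and range of the central 50% of genes (bar) of the log2 ratio of CPM, for 10, 30 and 360 min against 0 min, in the chromosome 19 ZNF genes, the ZNF genes of other chromosomes, the other protein-coding genes of chromosome 19 and all measured protein-coding genes. The medians of chromosome 19 ZNF genes lie at 0.03, -0.11 and -0.01, and the bars of all 4 groups overlap at each time.

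Several members rose sharply in the 10 min library. ZNF480 went from 4.02 CPM at 0 min to 13.7 CPM at 10 min and stood at 4.59 and 7.70 CPM at 30 and 360 min. Its rise at 10 min was 3.40-fold (interval 2.52 to 4.66), and the 10 min library was the highest of the 4. ZNF432 stood at 12.4, 31.5, 24.6 and 20.2 CPM, a 2.54-fold rise at 10 min (interval 2.13 to 3.04), with every treated library above the 0 min one. ZNF208, the member with the most fingers at 36, went from 1.31 to 3.95 CPM, 3.01-fold (interval 1.75 to 5.40), and stood at 2.83 and 2.55 CPM later. ZNF227 (2.39-fold), ZNF135 (3.29-fold), ZNF534 (2.76-fold) and ZNF607 (3.01-fold) also passed the rule. In ZNF607, 12.5% of exon bases overlap AC093227.2 on the same strand, and in ZNF135 32.6% overlap ZSCAN18 on the other strand. Whether the counting used strand is not given in the sources used here, so reads in such overlaps cannot be assigned with certainty.

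Other members fell in the same library. ZNF331, an imprinted gene (chr19:53519527-53580269), stood at 22.9, 9.69, 24.0 and 24.3 CPM. Its level at 10 min was 2.37-fold lower (interval 1.93 to 2.91), and the libraries at 0, 30 and 360 min lay close together. ZNF793 stood at 7.35, 1.23, 4.29 and 7.83 CPM, with a 5.96-fold fall at 10 min (interval 3.57 to 10.5). ZNF570, its near neighbour, stood at 5.38, 1.62, 2.21 and 5.97 CPM and fell 3.32-fold (interval 2.06 to 5.55). In both, the 0 and 360 min libraries were the high ones. ZNF546 stood at 2.20, 0.264, 2.01 and 0.583 CPM, a fall of 8.31-fold at 10 min with a wide interval of 2.86 to 34.2. ZNF556 was nearly lost at 10 and 30 min, at 3.22, 0.159, 0.0913 and 2.26 CPM. Its low libraries held 9 and 5 counts, under the 12 counts (3 read pairs) used as a floor, so its ratios carry intervals of 5.66 to 145 at 10 min and 6.98 to 762 at 30 min.

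After 30 min, lower calls were more frequent than higher ones among the members. Of 221 members, 11 were higher, against 4.51% of all genes, and 19 were lower, against 4.11%, which are 4.98% and 8.60% of the members. The median log2 ratio was -0.11, with -0.0019 for all genes and 0.04 for the other genes of chromosome 19. The ZNF genes of other chromosomes had a median of -0.15, with 8 higher and 14 lower of 207. A low median at 30 min was therefore seen in both sets of ZNF genes and not in the neighbours of the members on chromosome 19. This difference between sets has no replicate check.

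ZNF302 and ZNF114 were the members that rose from 30 min on. ZNF302 (chr19:34677639-34686397) stood at 7.72, 9.21, 22.4 and 23.9 CPM. Its ratio to 0 min was 2.90-fold at 30 min (interval 2.32 to 3.64) and 3.09-fold at 360 min (interval 2.48 to 3.88). ZNF114 (chr19:48270102-48287608) stood at 10.0, 8.82, 30.1 and 27.0 CPM, 3.00-fold at 30 min (interval 2.47 to 3.65) and 2.69-fold at 360 min (interval 2.21 to 3.29). For both, the 0 and 10 min libraries were low and the 30 and 360 min libraries high, with a gap between them. ZNF473, a component of the machinery that trims the ends of histone transcripts, stood at 6.87, 11.5, 17.2 and 8.30 CPM and passed the rule only at 30 min among the 3 times, at 2.51-fold (interval 1.97 to 3.21). ZNF583 stood at 2.76, 1.59, 6.23 and 1.82 CPM, 2.26-fold higher at 30 min (interval 1.53 to 3.38).

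Several members were low mainly in the 30 min library. ZNF772 stood at 14.3, 9.0, 1.30 and 9.92 CPM, an 11.03-fold fall at 30 min (interval 6.78 to 19.1). ZNF260, known as a transcription factor of heart muscle cells, stood at 19.5, 11.5, 3.73 and 19.8 CPM, with 30 min the lowest and 10 min also below 0 and 360 min. Lower levels at 30 min also passed the rule for ZNF57 (2.66, 4.65, 0.566 and 2.37 CPM) and ZNF571 (3.59, 2.59, 0.785 and 2.68 CPM), at 4.69-fold and 4.58-fold. ZNF625 was 7.04-fold lower (interval 2.39 to 29.2), but 83.3% of its exon bases overlap the read-through gene ZNF625-ZNF20, which itself stood at 0.850, 0.0352, 1.86 and 0 CPM. Reads of that pair can be split between the annotated transcripts of either gene.

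After 360 min, fewer members were called, and again more were lower than higher. Of 222 members, 8 were higher, against 3.86% of all genes, and 17 were lower, against 4.33%, which are 3.60% and 7.66% of the members. Medians were -0.01 for the members and -0.00034 for all genes. Among 207 ZNF genes of other chromosomes the counts ran the other way, with 14 higher and 5 lower, and among 766 other genes of chromosome 19 they were 32 and 42.

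The members lower only at 360 min among the 3 times included several expressed above 10 CPM. ZNF264 stood at 18.3, 18.8, 14.5 and 3.20 CPM, with the first 3 libraries high and the last low. ZNF791 stood at 16.6, 24.4, 17.7 and 6.68 CPM, 2.49-fold lower at 360 min (interval 1.95 to 3.21). ZNF580, a short protein with 3 fingers, stood at 27.9, 28.4, 26.8 and 11.5 CPM, 2.43-fold lower (interval 2.01 to 2.94), though 15.1% of its exon bases overlap ZNF581 on the same strand. ZNF93, known to silence a family of LINE-1 elements, stood at 11.2, 6.08, 9.28 and 4.06 CPM, 2.77-fold lower (interval 2.03 to 3.83). ZNF808, known for its role in the development of the pancreas, stood at 4.67, 8.38, 5.64 and 1.55 CPM and was 3.02-fold lower. In the other direction, ZNF440 stood at 2.89, 5.92, 4.201 and 10.5 CPM and was 3.65-fold higher (interval 2.56 to 5.31).

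**Figure D2:**
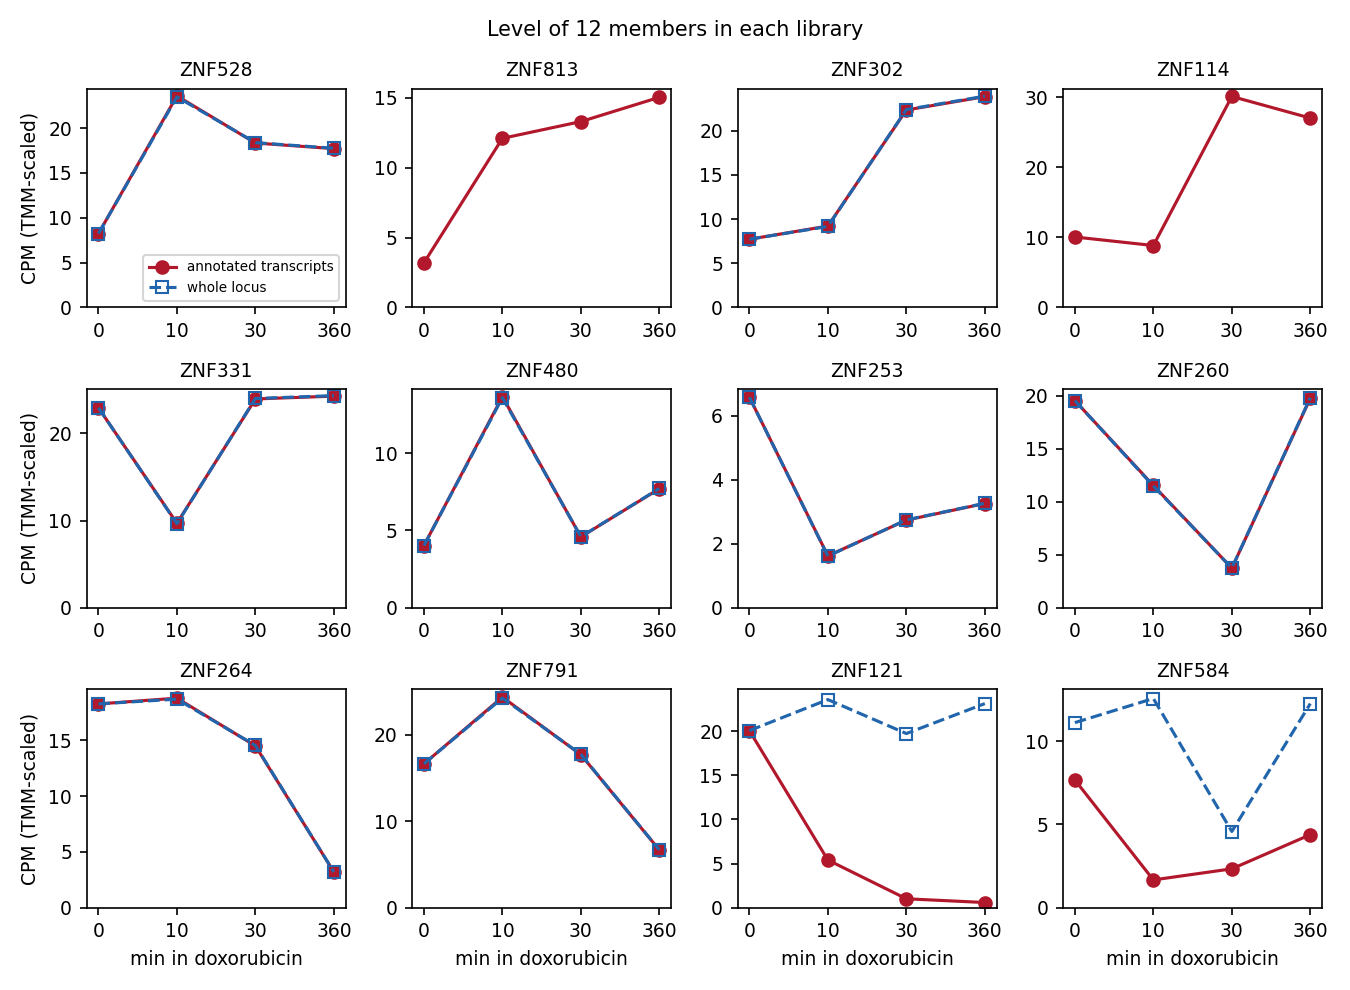
Level of 12 members in each library in TMM-scaled CPM, against min in doxorubicin on an evenly spaced axis, from annotated transcripts (red circles) and from the whole locus where one was matched (blue squares). Each point is 1 library. ZNF331 is lowest at 10 min, ZNF260 at 30 min and ZNF264 at 360 min, and for ZNF121 the locus stays between 19.7 and 23.6 CPM while the annotated transcripts fall.

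Between 10 and 30 min, the comparison that does not use the 0 min library, 17 of 220 members were higher, against 7.65% of all genes, and 22 were lower, against 9.37%. The median log2 ratio was -0.11 for the members, 0.05 for all genes and 0.06 for the ZNF genes of other chromosomes. Lower calls included ZNF480 (2.98-fold, interval 2.23 to 4.03), ZNF471 (13.3 CPM at 10 min and 6.19 at 30 min) and ZNF551 (5.16 and 1.92 CPM). Higher calls included ZNF331 (2.47-fold, interval 2.02 to 3.04) and ZNF559, which went from 5.83 to 17.8 CPM.

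Over the 3 times against 0 min, 73 members passed the rule at least once, which is 32.6% of the members against 24.9% of all genes. Of these, 49 passed at 1 time, 16 at 2 and 8 at all 3. The shares of 32.6% and 24.9% were not matched for level, and the median member stood at 5.84 CPM against 23.8 CPM. At 10 min, 31.8% of all genes with a mean under 4.03 CPM were higher and 8.35% lower. From 8.45 CPM up to the level of the highest member, 5.66% of all genes were higher and 7.62% lower. The part of level in the 32.6% was not tested. ZNF177, ZNF345, ZNF528 and ZNF813 were higher at every time, 1.79% of members against 1.07% of all genes. ZNF121, ZNF253, ZNF497 and ZNF628 were lower at every time, 1.79% against 0.660%. Since each set shares the 0 min library, such a run of calls needs only that 1 library to differ.

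Among the 4 members higher throughout, ZNF528 and ZNF813 were the best measured. ZNF528 (chr19:52397849-52418412) stood at 8.23, 23.6, 18.3 and 17.7 CPM, which is 2.87-fold higher at 10 min (interval 2.31 to 3.57), 2.23-fold at 30 min and 2.15-fold at 360 min. ZNF813 (chr19:53467735-53496255) stood at 3.19, 12.1, 13.3 and 15.0 CPM, with ratios of 3.80-fold (interval 2.72 to 5.40), 4.17-fold and 4.72-fold. In both, all treated libraries lay far above the 0 min library. ZNF345 stood at 0.673, 1.55, 1.92 and 2.04 CPM, with an interval at 10 min of 1.03 to 5.56 that nearly reached 1. ZNF177 stood at 0.443, 1.78, 1.81 and 2.97 CPM, but 90.8% of its exon bases overlap the read-through gene ZNF559-ZNF177, which stood at 3.06, 2.31, 1.81 and 1.97 CPM.

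Among those lower throughout, ZNF253 stood at 6.59, 1.62, 2.74 and 3.26 CPM, 4.07-fold lower at 10 min (interval 2.55 to 6.73), 2.40-fold at 30 min and 2.02-fold at 360 min. ZNF628 stood at 3.67, 1.69, 1.72 and 1.18 CPM. ZNF497 had 273 counts at 0 min and 0 in the other libraries, which is at least 22.9-fold, 22.1-fold and 22.1-fold lower against the floor of 12 counts per library. It overlaps AC012313.3 on the same strand over 45.3% of its exon bases and had no matched locus. ZNF121, the fourth, is described with the transcripts below.

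Calls at 10 min were unevenly spread along the chromosome. With all 240 members ordered along chromosome 19 and split wherever neighbouring starts lay over 1 Mb apart, 16 runs were formed. Runs 5 and 15 were singled out after the values of all runs were seen, and no test of their difference was made. Over all genes 9.88% were higher and 7.52% lower at this time. Run 5 (chr19:19668796-24129961, from ZNF101 to ZNF254, 34 of 37 members measured) had 1 higher (2.94%) and 8 lower members (23.5%) at 10 min, and 24 of its 34 ratios lay below 1. Run 15 (chr19:51571298-53580269, from ZNF175 to ZNF331, 38 of 39 measured) had 8 higher (21.1%) and 1 lower (2.63%), and 25 of its 38 ratios lay above 1. The medians were -0.38 and 0.20 on the log2 scale, and the central 50% of members overlapped, from -0.87 to 0.11 in run 5 and from -0.09 to 0.93 in run 15. Run 16 (chr19:55476332-58481230), the largest with 54 of 57 measured, had 3 higher (5.56%) and 5 lower (9.26%) and a median of 0.04. Larger positive medians than that of run 15 stood in run 1, at 0.70 with 1 higher and 1 lower of 5 members, and in run 8, at 0.25 with 2 higher of 5. With a minimum of 5 CPM, run 9 had a lower median than run 5, at -0.60 with 0 higher and 3 lower of 11, against -0.46.

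The summed level of run 5 was 209.6 CPM at 0 min, 166 at 10 min, 181 at 30 min and 199.7 at 360 min. Run 15 summed to 357, 429, 403 and 377 CPM in the same order. Run 5 was thus lowest and run 15 highest in the 10 min library, and both were nearest to their 0 min level at 360 min. Median log2 ratios were -0.23 for run 5 and 0.17 for run 15 at 30 min, and -0.02 and 0.08 at 360 min.

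The lower members of run 5 at 10 min were ZNF253, ZNF66, ZNF723, ZNF257, ZNF738, ZNF681, ZNF90 and ZNF726, and the 1 higher member was ZNF208. ZNF681 stood at 11.7, 4.76, 6.92 and 11.3 CPM, 2.47-fold lower at 10 min (interval 1.85 to 3.33). ZNF738 stood at 8.07, 3.08, 6.87 and 7.08 CPM, 2.62-fold lower (interval 1.83 to 3.80). ZNF257 stood at 7.10, 2.69, 6.12 and 4.28 CPM, 2.63-fold lower (interval 1.80 to 3.93). In these 3 the 10 min library was the lowest of the 4. The higher members of run 15 were ZNF813, ZNF480, ZNF528, ZNF534, ZNF415, ZNF432, ZNF610 and ZNF816, and the 1 lower member was ZNF331, at the far end of the run. ZNF816 stood at 4.04, 8.52, 4.35 and 4.57 CPM, 2.11-fold higher (interval 1.53 to 2.95), and ZNF610 at 1.77, 4.05, 2.01 and 2.24 CPM, 2.29-fold higher (interval 1.41 to 3.82).

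Over all settings tried, the median of run 5 at 10 min lay between -0.55 and -0.28 and that of run 15 between 0.11 and 0.26. All settings use these same libraries. Undivided counts cannot change a ratio, and lifting the minimum CPM added no member to either run at 10 min. By locus counts, run 5 had 1 higher and 7 lower of 25, and run 15 had 5 higher and 1 lower of 25. Most locus values equal the annotated ones by construction, as described below, so these counts are no separate check. With the median of the other 3 libraries in place of 0 min, the counts were 1 and 7 of 34 for run 5 and 5 and 1 of 38 for run 15. The runs also differed in level, with a median member at 4.33 CPM in run 5 and 9.13 CPM in run 15. The part of this difference was not tested. The KRAB pattern was found in 35 of 37 members of run 5 and 38 of 39 of run 15.

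**Figure D3:**
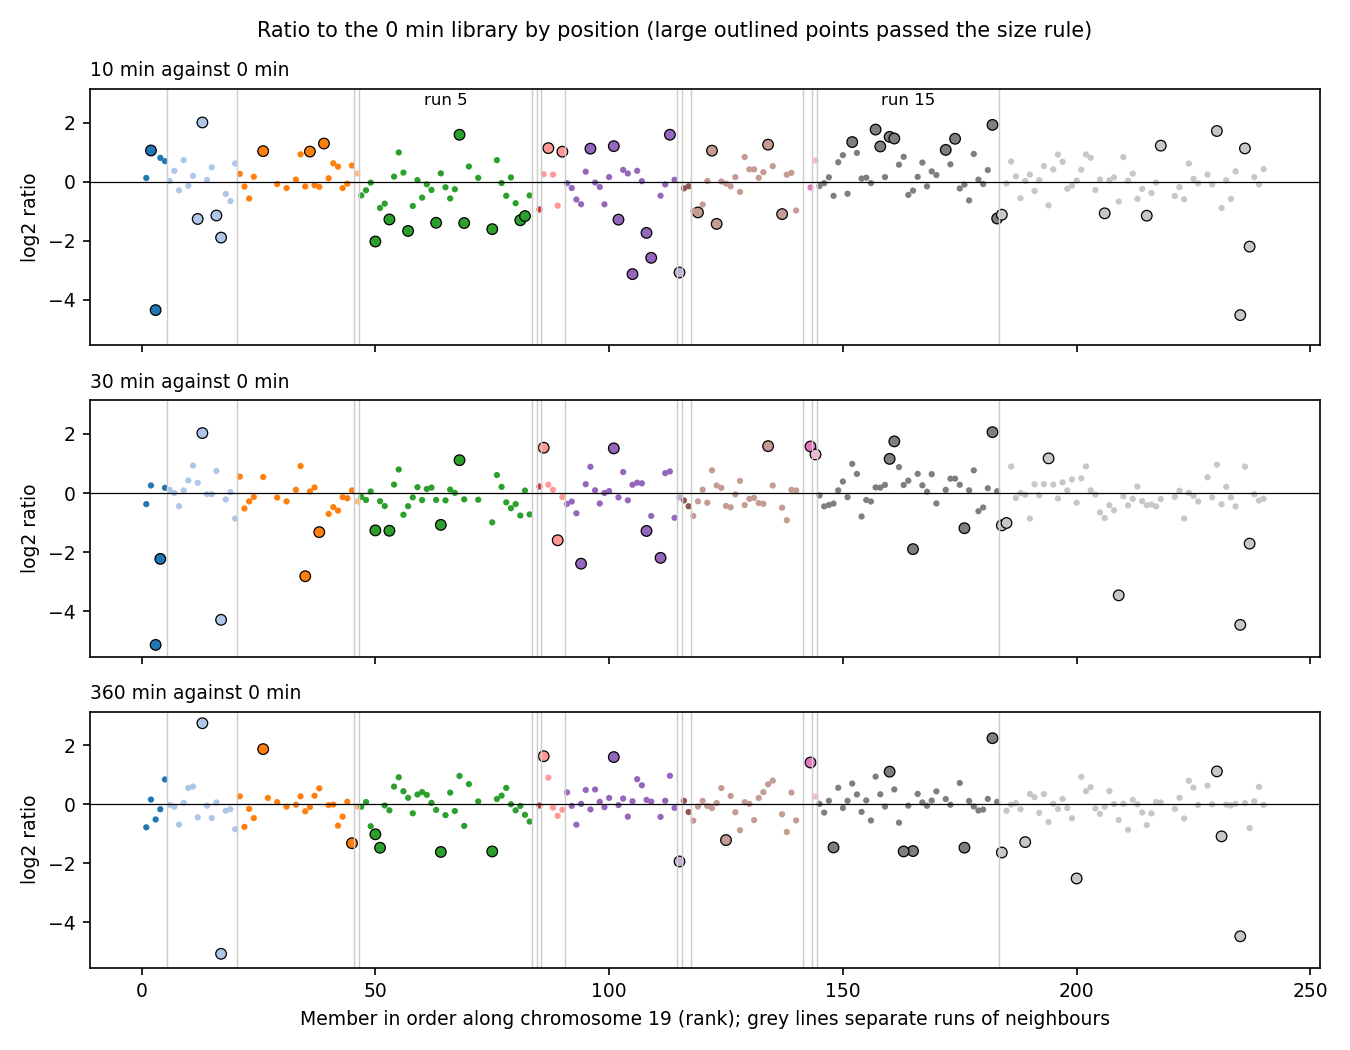
Log2 ratio of CPM to the 0 min library for each measured member, in order along chromosome 19, at 10, 30 and 360 min. Colours and grey lines mark the 16 runs of neighbours, and large outlined points passed the size rule. At 10 min the outlined points of run 5 lie mainly below 0 (8 lower, 1 higher) and those of run 15 mainly above it (8 higher, 1 lower).

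The proteins themselves were read from the annotated transcripts. A KRAB pattern was found in 177 of 240 members and in 167 of the measured ones, against 71 of 211 measured ZNF genes of other chromosomes. The median number of C2H2 fingers was 12 in the members, from 0 to 36, and 9 in the other ZNF genes. The pattern misses diverged boxes, so a gene without it may still carry one. In run 12 (chr19:43525497-45076588, from ZNF575 to ZNF296) it was found in only 2 of 24 members. Most of the 22 measured members of that run therefore fall in the group without the pattern. Whether they carry a diverged box was not tested, so this split is not one of KRAB against other genes. At 10 min, 21 of 166 members with the pattern were higher (12.7%) and 20 lower (12.05%), and 3 of 57 without it were higher (5.26%) and 6 lower (10.5%), against 9.88% and 7.52% of all genes. At 30 min the counts were 8 and 13 of 164 with the pattern and 3 and 6 of 57 without it, against 4.51% and 4.11%. At 360 min they were 7 and 10 of 165 and 1 and 7 of 57, against 3.86% and 4.33%.

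The number of fingers was also set beside the ratios. At 10 min, of 108 members with more than 12 fingers, 15 were higher (13.9%) and 9 lower (8.33%), with a median log2 ratio of 0.15. Of 115 with 12 or fewer, 9 were higher (7.83%) and 17 lower (14.8%), with a median of -0.06, while 9.88% of all genes were higher and 7.52% lower. At 30 min the counts were 7 and 10 of 106 and 4 and 9 of 115, against 4.51% and 4.11%, with medians of -0.07 and -0.13. At 360 min both groups had medians near 0, at 0.02 and -0.02. These groups are not independent of position, since neighbours share ancestry, and no test of the difference was made.

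How the members compared with other genes depended on level. The members were divided by mean level into 3 groups of equal size, with limits at 4.03 and 8.45 CPM. Of the group under 4.03 CPM, 18.9% were higher and 17.6% lower at 10 min, with a median log2 ratio of 0.07. All protein-coding genes in that range of level had 31.8% higher and 8.35% lower, with a median of 0.53. Higher and lower calls were thus about equally frequent among the low members, while higher calls prevailed among all low genes. The ZNF genes of other chromosomes in that range had 7 higher and 5 lower of 39 and a median of -0.08. Of all protein-coding genes 361 reached 1 CPM only in the 10 min library, among them 1 member and 3 ZNF genes of other chromosomes. Among genes that also had at least 1 CPM at 30 and 360 min, 19.7% of 61 members and 21.6% of 1167 genes were higher, whereas 14.8% and 7.97% were lower. Of 31 ZNF genes of other chromosomes within this limit, 9.68% were higher and 16.1% lower. Their median was -0.20, against 0.13 for the members and 0.28 for all genes within it. At 30 min, 18.1% of the lowest group of members were lower, against 11.4% of all genes in the range. In the middle group 2.70% were lower against 6.04%, and in the highest group 5.33% against 2.85%. At 360 min, 9.59%, 8.11% and 5.33% were lower from the lowest to the highest group, against 11.8%, 6.41% and 3.24% of all genes in range. Whether members were more often lower than genes of similar level thus differed by group and time. In the highest group, above 8.45 CPM, 3 members were higher and 5 lower at 10 min, 4.00% and 6.67% of 75, against 5.66% and 7.62% of all genes in that range.

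Which transcript of a gene took the most counts differed between libraries more often in called members than in the others. The leading transcript, the annotated transcript with the most counts, was the same at 0 and 10 min in 28 of the 50 called members (56.0%) and in 80.3% of the 173 not called. At 30 min the shares were 43.3% of 30 called members and 79.1% of the others, and at 360 min 40.0% of 25 and 78.2%. Over all protein-coding genes the shares were 67.7% and 80.0% at 10 min, 62.7% and 80.9% at 30 min, and 61.4% and 80.4% at 360 min. These shares were not matched for level. At 10 min calls were more frequent among low members, whose leading transcript rests on fewer counts, and the part of level was not tested. ZNF264 held 90.3% of its counts in 1 transcript at 0 min and at most 40.3% in any at 360 min. In ZNF813, by contrast, 1 transcript led in all 4 libraries, with 73.9% of its counts at 0 min and 99.3%, 100% and 100% later.

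Values of whole loci were set beside those of annotated transcripts. A locus, which also counts transcript models made by assembly, was matched for 157 of the 224 measured members. Since matching required the locus without its models to equal the annotated counts, and the median share of models was 0 at every time, most pairs of values are equal by construction, and only the differences carry information. Of the called members with a locus, 32 of 37 passed in the same direction by locus at 10 min, 18 of 20 at 30 min and 15 of 17 at 360 min. From 10 to 30 min, 21 of 26 did so, and the exceptions are members whose loci hold assembled models.

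The largest exception was ZNF121. Its annotated transcripts stood at 20.04, 5.41, 1.02 and 0.601 CPM, which is 33.4-fold lower at 360 min, whereas its locus stood at 20.05, 23.6, 19.7 and 23.1 CPM. Assembled models held 0%, 77.2%, 94.8% and 97.4% of the counts of that locus. By locus, ZNF121 passed the rule at no time. ZNF426 stood at 10.0, 4.54, 16.9 and 10.5 CPM by annotated transcripts and 20.3, 22.0, 21.4 and 21.1 CPM by locus. ZNF584 fell 4.58-fold at 10 min by annotated transcripts, from 7.67 to 1.67 CPM, while its locus went from 11.1 to 12.6 CPM. ZNF383 went from 2.001 to 0.229 CPM and its locus from 3.65 to 3.70 CPM. ZNF45 was 2.69-fold lower at 10 min by annotated transcripts and 1.56-fold lower by locus. ZNF83 was 3.73-fold lower at 30 min by annotated transcripts and 1.99-fold lower by locus, so its locus was also lower but short of the rule.

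**Figure D4:**
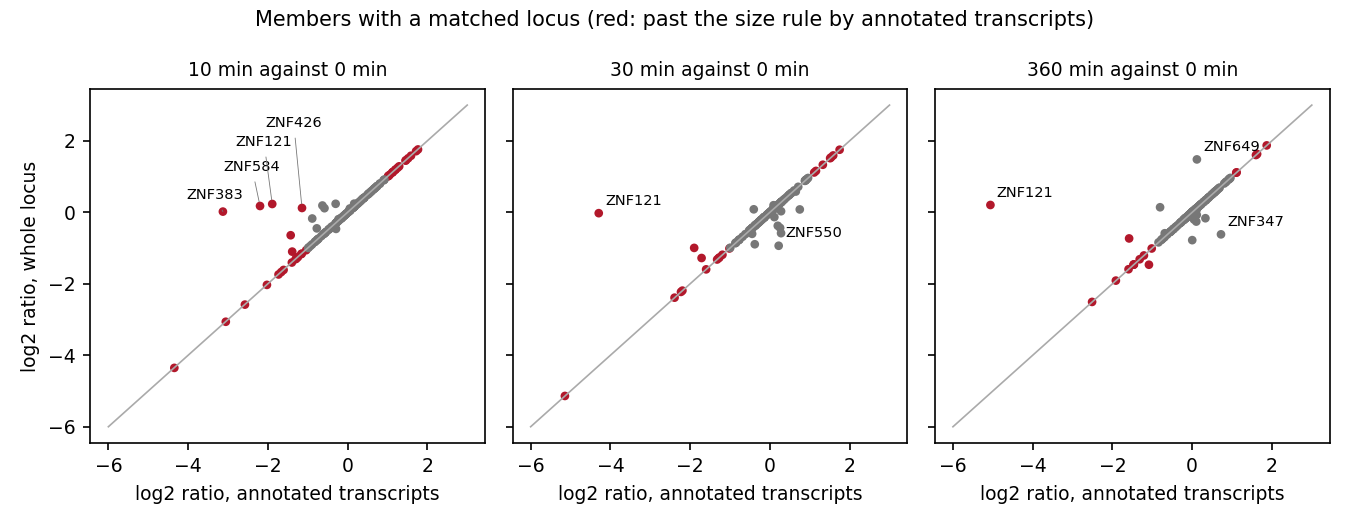
Log2 ratio to 0 min by annotated transcripts (horizontal) and by whole locus (vertical) for members with a matched locus, at 10, 30 and 360 min. Red points passed the size rule by annotated transcripts, names mark members whose 2 values differ by over 1, and the grey line marks equality. Most points lie on the line by construction, and ZNF121 stands at about 0 by locus at each time.

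Many members share sequence with another gene. Of the measured members, 32 had over 10% of their 75-base windows in transcripts of another gene, 89 had none, and 55 overlapped another gene over at least 10% of their exon bases. In 130 members 1 transcript led in all 4 libraries.

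The partners of KRAB zinc finger proteins had 4 calls at 10 min and 4 at 30 min. Of 24 measured genes from a list of 25 corepressor and heterochromatin genes, 0 were higher at 10 min, against 9.88% of all genes, and 4 were lower, against 7.52%. Their median log2 ratio was -0.31, against -0.04 for all genes. The list was not matched for level, and most of its genes stood above 8.45 CPM. All genes from that level up to the highest member had a median of -0.11, with 5.66% higher and 7.62% lower. TRIM28, the corepressor that KRAB boxes bind and itself a gene of chromosome 19, stood at 386, 215, 339 and 361 CPM. Its level at 10 min was 1.80-fold lower (interval 1.72 to 1.88), short of the 2-fold rule, and 10 min was the lowest library. SETDB1, the methyltransferase recruited by TRIM28, stood at 16.9, 19.7, 17.4 and 11.96 CPM and passed the rule at no time. All values of this list are sums of annotated transcripts, and no locus values were set beside them. A move of counts into assembled models, as seen for ZNF121, was therefore not looked for in these genes.

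The 4 lower genes at 10 min were TASOR and MORC2, which belong to or work with the HUSH silencing complex, the maintenance DNA methyltransferase DNMT1, and the histone H3 lysine 9 methyltransferase SUV39H2. TASOR stood at 94.2, 27.8, 89.0 and 102 CPM, 3.39-fold lower at 10 min (interval 3.03 to 3.80). DNMT1 stood at 212, 100.5, 213 and 188 CPM, and SUV39H2 at 17.0, 7.40, 19.2 and 25.5 CPM. MORC2 stood at 24.3, 9.19, 4.33 and 24.3 CPM, 2.65-fold lower at 10 min and 5.62-fold lower at 30 min (interval 4.26 to 7.54), and was back at its first level at 360 min. EHMT1, another lysine 9 methyltransferase, stood at 61.8, 48.9, 17.0 and 49.3 CPM and was 3.63-fold lower at 30 min (interval 3.14 to 4.21).

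The higher genes of the list against 0 min were called at 30 and 360 min. UHRF1, which guides DNMT1 to newly copied DNA, stood at 55.4, 47.0, 116 and 162 CPM, 2.10-fold higher at 30 min (interval 1.93 to 2.29) and 2.92-fold at 360 min (interval 2.69 to 3.17). SUV39H1 stood at 17.0, 13.8, 34.2 and 33.4 CPM and was 2.01-fold higher at 30 min (interval 1.72 to 2.36). RIF1, which acts in replication timing and DNA repair, stood at 51.4, 47.6, 35.9 and 22.5 CPM and was 2.28-fold lower at 360 min (interval 1.995 to 2.62). At 30 min the list had 2 higher and 2 lower genes of 24, against 4.51% and 4.11% of all genes, and a median of -0.05. At 360 min it had 1 higher and 1 lower, against 3.86% and 4.33%, and a median of 0.01.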

How the data were processed

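Poly(A) RNA of AC16 cells was sequenced from 1 library each at 0, 10, 30 and 360 min in 10 nM doxorubicin. The authors deposited estimated counts per transcript and per gene locus, as whole numbers, neither scaled nor divided by length. HISAT2, DESeq2 and GRCh38 are named, per the submitters' processing notes. Not given in the sources used here are versions, the counter, the annotation release and the use of strand. Annotated transcripts found in GENCODE 29 held 88.8% of the deposited counts and models made by assembly 11.1%.

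The deposited counts of a gene's annotated transcripts were summed and given as CPM after TMM scaling (edgeR 4.0.16, run in R 4.3.3), whose factors were 0.993, 1.02, 0.990 and 0.996 in order of time. The measured members, however, were chosen on CPM from column totals. Members are the protein-coding genes of chromosome 19 named ZNF plus a number with at least 1 CPM in 1 library. Libraries were compared by the ratio of CPM with a 95% exact conditional binomial (Clopper-Pearson) interval from SciPy 1.17.1, on counts divided by 4, since low values were more frequent at multiples of 4 than beside them. Each read pair is thus assumed to stand for 4 deposited counts, which is an estimate. A library with 0 counts entered at a floor of 3 read pairs (12 counts). Without replicates neither edgeR's nor DESeq2's test was run. The size rule was tested on simulated data. Those data held counting error only, at 4 counts per read pair, so they say nothing of spread between cultures or of counts moved between transcripts.

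A locus was matched to a gene where its counts, less its assembled models, equalled the gene's annotated counts in all libraries with at least 20 counts (129 members), where 1 gene held at least 95% of a matched group of up to 6 neighbours (4), or by its own identifier (24). KRAB boxes and fingers were searched as letter patterns in translated GENCODE transcripts, since the RefSeq protein table was not used here. Promoters are RefSeq windows on GRCh38.p14. Scripts ran in Python 3.11.15 with Biopython 1.88, pandas 2.3.3, numpy 2.4.6 and matplotlib 3.10.9.

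The members, lists and rules were chosen with earlier results of these data known. Members were named by rule: for each comparison up to 10 higher and 10 lower calls with the largest fold at the interval bound nearest to 1, calls in 1 direction at all 3 times, the 6 highest in CPM per kilobase, the 4 steadiest, calls of the largest run if not more than 10, and members at 0 in 1 library and at 2 CPM or more in another. TRIM28, SETDB1 and the called genes of the corepressor list were named too. Other members of runs 5 and 15 and members just at the limit were named after their values were seen. Some genes that meet the rule are left out of the text. Endothelial, immune, epithelial and smooth muscle markers were also summed, at 5.74, 11.2, 4.59 and 5.94 CPM, 30.6, 56.4, 33.3 and 29.9 CPM, 5.35, 7.84, 6.90 and 6.65 CPM, and 79.6, 85.1, 86.6 and 51.1 CPM at 0, 10, 30 and 360 min. Alternatives were column totals, median-of-ratios scaling, 5 CPM or no minimum, undivided counts, locus counts, only members with the same leading transcript or under 10% exon overlap, and the median of the other 3 libraries in place of the first one. Members with under 10% shared windows, and all these limits together, were added after seeing the data.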

Additional observations from a re-analysis of the deposited data

How the results depend on the processing

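Scaling by column totals or median of ratios, and undivided counts, left the call, or lack of one, of every named member as it was in every comparison. Undivided counts only narrow the intervals, so with them no call could be lost. Lifting the minimum CPM, or leaving out members with 10% or more exon overlap or shared windows, changes no ratio or interval of a compared member. The calls of named members therefore stayed by construction there. All of these settings kept the counts of higher and lower members of the family within 1.5 times. In single runs small counts moved more, such as 2 higher in place of 1 in run 5 at 10 min with column totals or median of ratios. At 10 min the calls were nearly even, so which direction had more depended on scaling: 24 higher and 26 lower with TMM, 26 and 25 with column totals, and 25 and 26 with median of ratios. Over the settings, the members' median log2 ratio ranged from -0.05 to 0.07 at 10 min, on both sides of 0, from -0.13 to -0.05 at 30 min, from -0.01 to 0.02 at 360 min, and from -0.15 to -0.03 for 30 against 10 min. Other settings compare fewer members, so counts fall by construction. With at least 5 CPM they were 12 higher and 17 lower at 10 min, 7 and 9 at 30 min, 5 and 10 at 360 min, and 12 lower from 10 to 30 min. By locus counts they were 15 lower at 10 min, 7 higher and 11 lower at 30 min, 10 lower at 360 min, and 10 higher and 13 lower from 10 to 30 min. With the same leading transcript they were 15 and 13 at 10 min, 5 and 8 at 30 min, 3 and 7 at 360 min, and 11 and 13 from 10 to 30 min. With all limits together, a setting chosen after seeing the data, they were 11 and 12, 5 and 8, 3 and 5, and 11 and 9. With the median of the other 3 libraries as the baseline, 6 were higher at 30 min, whether it replaced 0 or 10 min.

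By locus counts, named members kept their call or lack of one in 129 comparisons, in 6 a call fell short of the rule and in 8 the sign changed: at 10 min ZNF426 (log2 0.12), ZNF584 (0.18), ZNF383 (0.0196) and ZNF121 (0.23), at 360 min ZNF121 (0.20), and from 10 to 30 min ZNF426 (-0.0408), ZNF584 (-1.46) and ZNF383 (-0.60). With the other baseline the numbers were 154, 30 and 13, and 6 newly passed. The sign changes were, at 10 min, ZNF302 (-1.28), ZNF83 (1.28), ZNF177 (-0.0238), ZNF121 (2.40), ZNF813 (-0.14) and ZNF345 (-0.31), at 30 min ZNF546 (1.79) and ZNF628 (0.0223), at 360 min ZNF528 (-0.05), ZNF556 (3.83) and ZNF253 (0.25), and from 10 to 30 min ZNF570 (-1.28) and ZNF793 (-0.78). The cause was not tested. No paired analysis was possible because each time has 1 library. Depth limits the low members: 12 counts equal 0.211 to 0.219 CPM, and intervals cover counting error only, not the spread between cultures.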
